A study of Mus musculus with 3 samples.

Results

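The TRBJ2 genes are the second of the 2 clusters of joining (J) genes of the T cell receptor (TCR) beta chain. Members were the beta-chain rows whose best matching J gene, before the allele mark, had a name starting with TRBJ2. They comprised 6 genes, TRBJ2-1, TRBJ2-2, TRBJ2-3, TRBJ2-4, TRBJ2-5 and TRBJ2-7, of the 13 TRBJ genes that the data listed. Together with the few rows of TRBJ2-6, the cluster held 114855 of 167967 TCR beta clonotypes, which is 68.4%, and 341484 of 478831 reads. A clonotype is here a distinct nucleotide sequence of the CDR3, the loop that spans the V, D and J junction. The seventh listed gene of the cluster, TRBJ2-6, is a pseudogene in the RefSeq gene list. It had 1 clonotype of 1 read in CD8 and in DN T cells and 0 of 44807 clonotypes in CD4 T cells, which allows a share of up to 0.0067%, and is not described further.

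The study asked where double-negative (DN) T cells, which carry an alpha-beta TCR but neither CD4 nor CD8, come from in lupus. The samples were CD4, CD8 and DN T cells sorted by flow cytometry from the spleen of 1 mouse, which was 16 weeks old and of the lupus-prone strain MRL.lpr, whose lpr mutation in Fas all 3 samples carry. The mRNA of the same number of cells of each subset gave 1 library. No other strain, second mouse or second library of a subset was analysed here, so the differences between subsets lack a replicate check and no p-value was computed. The 95% intervals below (Wilson for shares, log-scale for ratios) cover counting error only. Reads amplified by PCR and carrying no molecular identifier cannot be counted as separate molecules, so the intervals of read shares are too narrow even for that. The tables list TCR sequences alone, so the sorted identity of the cells could not be set against CD4 or CD8 transcripts.

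A TCR beta gene is assembled in the thymus by joining a D gene to a J gene and then a V gene to the D-J unit. The gene order on mouse chromosome 6 is TRBD1, the TRBJ1 genes, TRBD2 and the TRBJ2 genes. TRBD1 can therefore join a J gene of either cluster, while a direct join of TRBD2 leads to TRBJ2. Bases are trimmed from and added to the ends at each joint, and a rearrangement that ends out of frame encodes no receptor and can persist in a cell whose other allele works. The J gene supplies the last residues of the CDR3, up to a conserved phenylalanine.

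The libraries overlapped. Among the TRBJ2 clonotypes of DN T cells, 5637 of 29683 (19.0%) were also present in CD8 T cells with the same CDR3 nucleotides, V gene and J gene, and these held 68.2% of the TRBJ2 reads of DN T cells. In the other direction they were 9.98% of the TRBJ2 clonotypes of CD8 T cells and 24.4% of their reads. CD4 T cells held 2686 of the DN clonotypes (9.05%, with 51.4% of the DN reads). CD4 and CD8 T cells shared 2709 clonotypes, 9.45% of the CD4 and 4.79% of the CD8 set. Found in 1 library only were 22794 of the 29683 TRBJ2 clonotypes of DN T cells and 32359 of all their 41948 TCR beta clonotypes. In CD8 T cells these were 49599 of 56511 and 71479 of 81212, and in CD4 T cells 24700 of 28661 and 39092 of 44807. TRBJ2 made up most of the clonotypes of each library, so these counts are not independent of those of all TCR beta clonotypes. Of the clonotypes found in 2 libraries, TRBJ2 made up 66.9% in the CD4, 70.3% in the CD8 and 71.3% in the DN library. Of those found in 1 library it made up 63.2%, 69.4% and 70.4%. The shares of reads were not set against all TCR beta reads. In all, 1434 TRBJ2 clonotypes occurred in all 3 libraries, where TRBJ2 made up 74.0% (95% interval 72.03 to 75.9%) of the shared clonotypes. Whether these came from the mouse or from carry-over between samples was not tested, and the main values are therefore also given for the clonotypes found in 1 library.

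The part of each J gene that reached the CDR3 is given here because it sets how the 6 genes differ in the receptor. It was read from the in-frame clonotypes of the 3 libraries, 5′ to 3′, and ends with the codon of the conserved phenylalanine. Capitals mark the bases that at least 90% of the gene's in-frame clonotypes held unbroken from that codon backwards, and lower case the bases that trimming removed more often.
TRBJ2-1: aactatGCTGAGCAGTTCTTC
TRBJ2-2: aacACCGGGCAGCTCTACTTT
TRBJ2-3: agtgCAGAAACGCTGTATTTT
TRBJ2-4: agtcaaaACACCTTGTACTTT
TRBJ2-5: aaccaaGACACCCAGTACTTT
TRBJ2-7: tcctatGAACAGTACTTC
The stretch had 21 bases in 5 genes and 18 in TRBJ2-7. It was whole in 55.1% of the in-frame TRBJ2-2 clonotypes, in 44.4% of those of TRBJ2-3, in 35.6% for TRBJ2-4, in 32.3% for TRBJ2-1, in 24.3% for TRBJ2-7 and in 22.0% for TRBJ2-5. TRBJ2-2 thus kept its printed stretch whole most often and TRBJ2-5 least often of the 6. No germline sequence was used, and J bases may precede the printed stretch. These shares therefore do not rank the genes by trimming.

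TRBJ2 made up a lower share of clonotypes in CD4 T cells than in the other subsets. It held 28661 of 44807 clonotypes in CD4 T cells (64.0%, 95% interval 63.5 to 64.4%), 56511 of 81212 in CD8 T cells (69.6%, 69.3 to 69.9%) and 29683 of 41948 in DN T cells (70.8%, 70.3 to 71.2%). DN exceeded CD8 T cells by a ratio of 1.02 (1.01 to 1.02) and CD4 T cells by 1.11 (1.10 to 1.12), while CD8 over CD4 was 1.09 (1.08 to 1.10). DN and CD8 T cells thus lay close together and both stood above CD4 T cells. For clonotypes found in 1 library the shares were 63.2% in the CD4, 69.4% in the CD8 and 70.4% in the DN library. With only clonotypes of at least 2 reads, the DN over CD8 ratio was 1.005 (0.993 to 1.02), and the excess over CD8 T cells was then not detectable.

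By reads, the TRBJ2 share was 67.4% in the CD4, 70.1% in the CD8 and 75.0% in the DN library. The DN over CD8 ratio by reads was 1.07 (95% interval 1.07 to 1.08), and it was 1.01 (1.00 to 1.01) for the clonotypes found in 1 library and 1.03 (1.03 to 1.04) once each library had lost its 100 largest clonotypes. The excess of TRBJ2 reads in DN over CD8 T cells was thus smaller among clonotypes that no other library held.

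**Figure D1:**
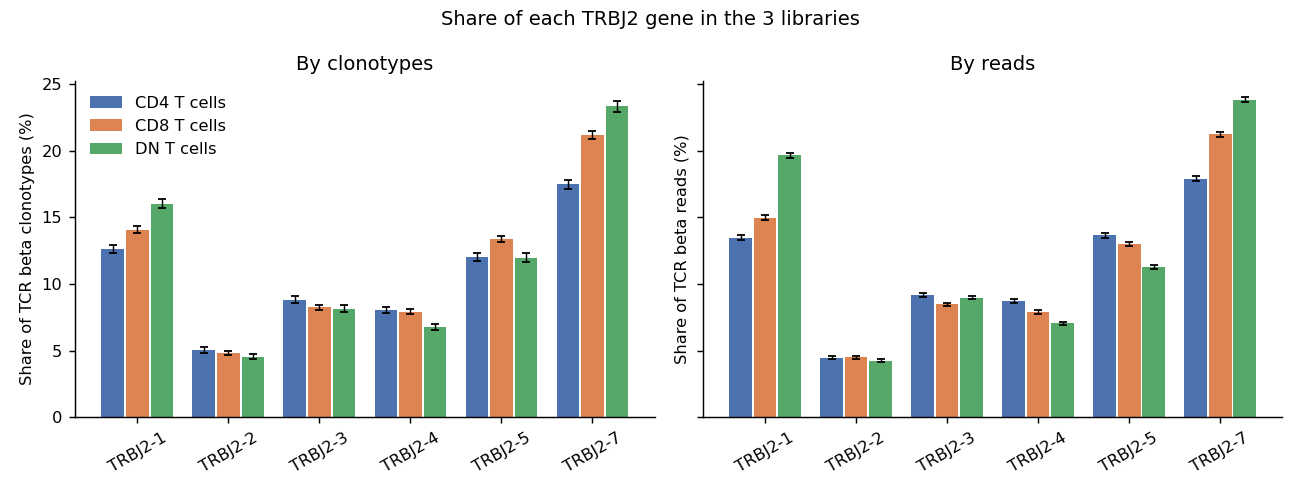
Share of each TRBJ2 gene among TCR beta clonotypes (left) and reads (right), in percent, for 1 library each of CD4, CD8 and DN T cells. Bars are shares and error bars are 95% Wilson intervals. TRBJ2-7 was the tallest in every library, from 17.5% of clonotypes in CD4 to 23.3% in DN T cells, and TRBJ2-1 by reads stood at 19.6% in DN T cells.

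Within the cluster the order of the genes by clonotypes was the same in each library. TRBJ2-7 was used most and TRBJ2-2 least. TRBJ2-1, TRBJ2-5, TRBJ2-3 and TRBJ2-4 followed TRBJ2-7 in that order. The neighbours TRBJ2-1 and TRBJ2-5 had intervals that touched in CD4 T cells (12.3 to 12.9% and 11.7 to 12.3%), and those of TRBJ2-3 and TRBJ2-4 overlapped in CD8 T cells (8.06 to 8.43% and 7.72 to 8.09%). All other neighbours in each library had separate intervals. The 2 most used genes lie at the ends of the cluster, TRBJ2-1 first and TRBJ2-7 last.

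TRBJ2-7, the last gene of the cluster, made up 17.5% of clonotypes in the CD4, 21.2% in the CD8 and 23.3% in the DN library. The intervals of the 3 libraries were separate, and DN over CD4 was 1.34 (95% interval 1.30 to 1.37) and DN over CD8 was 1.10 (1.08 to 1.13). By reads the shares were nearly the same, at 17.9%, 21.2% and 23.8%. Among clonotypes found in 1 library the DN over CD8 ratio by clonotypes was 1.10 (1.08 to 1.13).

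TRBJ2-1, the first gene after TRBD2, made up 12.6% of clonotypes in the CD4, 14.1% in the CD8 and 16.0% in the DN library, again with separate intervals. DN over CD4 was 1.27 (95% interval 1.23 to 1.31) and DN over CD8 was 1.14 (1.11 to 1.17). By reads the difference was larger, with 13.5%, 14.98% and 19.6%, a DN over CD8 ratio of 1.31 (1.29 to 1.33). That ratio by reads was 1.18 (1.15 to 1.20) among clonotypes found in 1 library, and the ratio by clonotypes was then 1.15 (1.12 to 1.19).

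TRBJ2-4 and TRBJ2-5 were lower in DN than in CD8 T cells. TRBJ2-4 made up 8.03% of clonotypes in the CD4, 7.90% in the CD8 and 6.77% in the DN library, with a DN over CD8 ratio of 0.857 (95% interval 0.822 to 0.895). TRBJ2-5 had 12.01%, 13.4% and 11.97% in that order, and CD8 T cells were the subset that stood apart, with DN over CD8 at 0.897 (0.869 to 0.925) and DN over CD4 at 0.997 (0.962 to 1.03). By reads TRBJ2-5 was 13.6% in the CD4, 13.0% in the CD8 and 11.3% in the DN library. Its CD8 over CD4 ratio was thus 0.952 by reads and 1.11 by clonotypes, and by reads it was 1.08 without the 100 largest clonotypes.

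TRBJ2-2 and TRBJ2-3 varied least. TRBJ2-2 made up 5.03% of clonotypes in the CD4, 4.83% in the CD8 and 4.54% in the DN library, and TRBJ2-3 made up 8.82%, 8.24% and 8.12%. The DN over CD8 ratio was 0.940 (0.891 to 0.992) for TRBJ2-2 and 0.986 (0.947 to 1.03) for TRBJ2-3. The members were then set against all functional J genes. Besides TRBJ2-1 and TRBJ2-7, TRBJ1-6 of the other cluster was higher by clonotypes in DN than in CD8 T cells with an interval above 1. Its ratio was 1.13 (1.07 to 1.20). Of the 12 J genes with at least 100 clonotypes, TRBJ2-1 and TRBJ2-7 were over 25% higher in DN than in CD4 T cells, and they were the only J genes that far above (16.7% of the 12 genes). None of the 6 TRBJ2 genes was over 20% lower, the same fold, in that comparison, where 16.7% of all J genes were. Between DN and CD8 T cells 0 of 6 passed this fold in either direction, against 0% of the J genes higher and 8.33% lower, and between CD8 and CD4 T cells 0 of 6, against 0% higher and 16.7% lower.

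**Figure D2:**
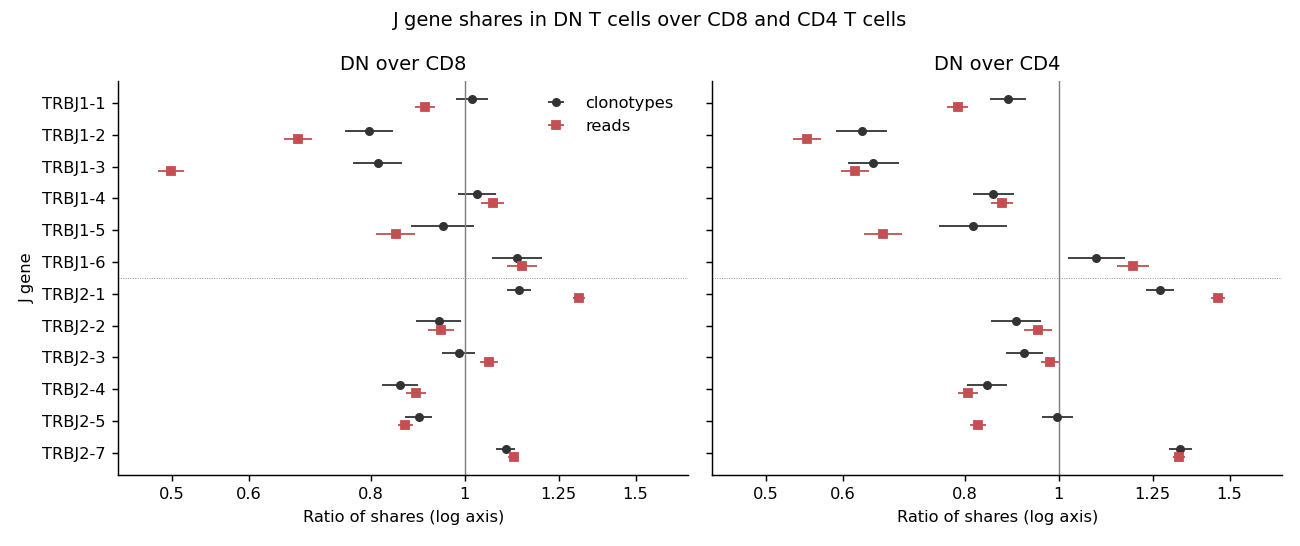
Ratio of each J gene's share in DN over CD8 (left) and DN over CD4 T cells (right), on a log axis, by clonotypes (circles) and reads (squares). The 95% intervals are for counting error and are too narrow for reads. The dotted line separates TRBJ1 from TRBJ2 genes. TRBJ2-1 and TRBJ2-7 lie right of 1 in both panels, with clonotype ratios of 1.14 and 1.10 over CD8 T cells, and TRBJ2-4 lies left of 1 in both.

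The largest clonotypes show what the reads rest on. Reads per TRBJ2 clonotype were 3.14 in the CD4, 1.87 in the CD8 and 4.91 in the DN library, and per TRBJ1 clonotype 2.70, 1.83 and 3.96. TRBJ2-1 had the most in DN T cells, with 5.68 reads per clonotype, and TRBJ2-2 the fewest, with 4.33. TRBJ2 clonotypes filled 78 of the 100 largest places in the CD4, 77 in the CD8 and 78 in the DN library. Of all TCR beta clonotypes they made up 64.0%, 69.6% and 70.8% in that order. In DN T cells 25.1% of the TRBJ2-1 reads were in its 20 clonotypes among those places. The same measure was 26.1% for TRBJ2-4, in 8 clonotypes, and 20.3% for all TRBJ2 genes.

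The leading clonotypes of 4 genes in DN T cells are printed with the bases that continue the J end above in capitals. They were the 4 largest TCR beta clonotypes of DN T cells, and each was also read in CD8 and CD4 T cells. So was the leading TRBJ2-2 clonotype, with 6 reads in CD4 and 41 in CD8 T cells, and that of TRBJ2-5, with 9 and 46.
TRBV31 and TRBJ2-1: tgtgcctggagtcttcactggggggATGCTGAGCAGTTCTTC
TRBV4 and TRBJ2-3: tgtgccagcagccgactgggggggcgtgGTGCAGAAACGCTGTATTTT
TRBV13-1 and TRBJ2-4: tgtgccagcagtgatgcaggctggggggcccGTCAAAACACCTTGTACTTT
TRBV1 and TRBJ2-7: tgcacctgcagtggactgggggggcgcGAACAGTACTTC
The TRBV13-1 and TRBJ2-4 clonotype was the largest TCR beta clonotype of DN T cells, with 1374 reads there, 225 in CD8 and 62 in CD4 T cells. It held 10.04% of all TRBJ2-4 reads of DN T cells. That of TRBV4 and TRBJ2-3 had 1339, 212 and 68 reads in DN, CD8 and CD4 T cells. The TRBV1 and TRBJ2-7 clonotype had 1299, 179 and 51, and that of TRBV31 and TRBJ2-1 had 1269, 152 and 46. All 4 were assigned TRBD2, as were the leading TRBJ2-2 and TRBJ2-5 clonotypes of DN T cells.

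In CD4 and CD8 T cells the leading clonotypes had few reads in the other libraries, except that of TRBJ2-2 in CD8 T cells, which was out of frame and had 52 reads there, 66 in CD4 and 88 in DN T cells. The largest of CD4 T cells was a join of TRBV13-2 and TRBJ2-5, with 1484 reads there, 21 in CD8 and 3 in DN T cells. It held 8.14% of the TRBJ2-5 reads of CD4 T cells. The largest TRBJ2-1 clonotype of CD4 T cells, also with TRBV13-2, had 1275, 5 and 7 reads in the CD4, CD8 and DN libraries. In CD8 T cells the leading TRBJ2-3 clonotype, with TRBV17, had 637 reads against 3 in CD4 and 2 in DN T cells, and the leading TRBJ2-4 clonotype, with TRBV1, had 593 against 12 and 5.

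Out-of-frame clonotypes were compared with in-frame ones because they cannot have been chosen for their receptor. In CD4 T cells TRBJ2 held 2308 of 3308 out-of-frame clonotypes (69.8%, 95% interval 68.2 to 71.3%) and 63.4% of in-frame clonotypes, a ratio of 1.10 (1.07 to 1.13). In CD8 T cells it held 2756 of 3704 (74.4%, 73.0 to 75.8%) against 69.3%, a ratio of 1.07 (1.05 to 1.09). In DN T cells it held 2514 of 3528 (71.3%, 69.7 to 72.7%) against 70.7%, a ratio of 1.01 (0.986 to 1.03). By clonotypes, TRBJ2 was thus more common out of frame than in frame in CD4 and CD8 T cells and not detectably so in DN T cells. By reads it made up 71.5% out of frame (70.4 to 72.6%) against 67.1% in frame in CD4 T cells, and 72.9% (71.7 to 74.1%) against 69.9% in CD8 T cells. In DN T cells the out-of-frame share by reads, 66.6% (65.6 to 67.6%), was below the 75.5% in frame. These shares by reads rest partly on single sequences. A TRBJ2-1 CDR3 of 16 nucleotides held 357 of the 4754 out-of-frame TRBJ2 reads in the CD4, 164 of 3888 in the CD8 and 323 of 5747 in the DN library. Between libraries, the out-of-frame TRBJ2 share of DN over CD8 T cells was 0.958 (0.931 to 0.985), below 1, whereas the in-frame ratio was 1.02 (1.01 to 1.03). By reads the out-of-frame ratio was 0.913 (0.893 to 0.934) for DN over CD8 and 0.931 (0.911 to 0.951) for DN over CD4 T cells, where that by clonotypes was 1.02 (0.990 to 1.05).

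**Figure D3:**
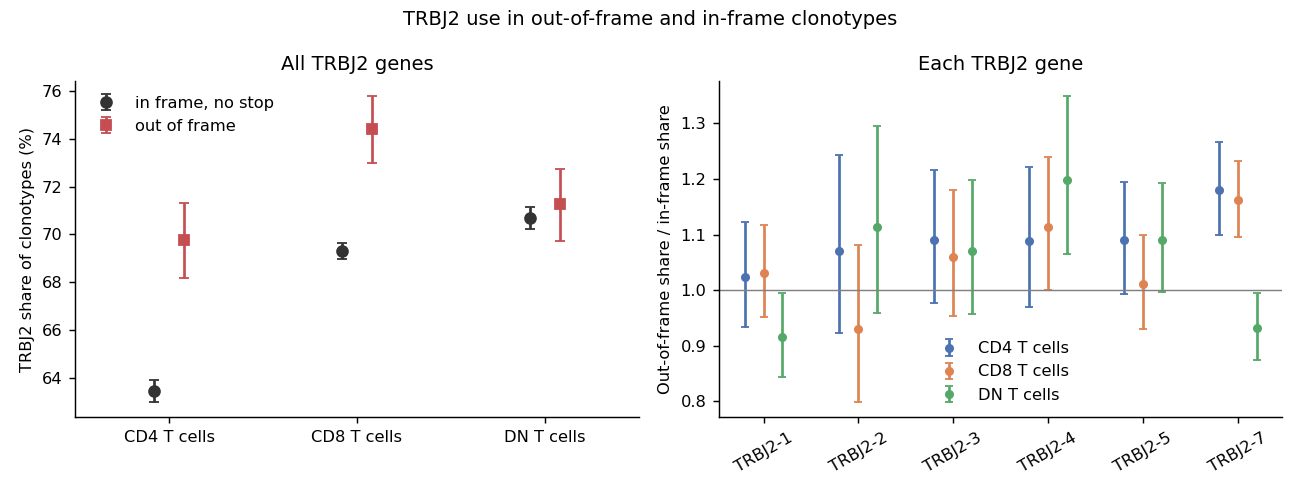
TRBJ2 share of in-frame (circles) and out-of-frame (squares) clonotypes in percent, on an axis that does not start at 0 (left), and the ratio of out-of-frame to in-frame share for each gene (right), with 95% intervals for counting error, for 1 library each of CD4, CD8 and DN T cells. TRBJ2-7 had ratios of 1.18 in the CD4, 1.16 in the CD8 and 0.933 in the DN library.

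Among the 6 genes, TRBJ2-7 had the widest gap between CD4 and DN T cells in this ratio. By fold, genes of the other cluster had wider ones. TRBJ1-2 was at 0.862 in CD4 and 1.38 in DN T cells, TRBJ1-5 at 1.12 and 1.44, and TRBJ1-3 at 0.781 and 1.02. The out-of-frame over in-frame ratio of TRBJ2-7 was 1.18 (95% interval 1.10 to 1.27) in the CD4, 1.16 (1.10 to 1.23) in the CD8 and 0.933 (0.874 to 0.995) in the DN library. Among clonotypes found in 1 library the DN value was 0.944 (0.881 to 1.01), with an interval that reached 1. TRBJ2-1 was at 1.02 (0.934 to 1.12), 1.03 (0.952 to 1.12) and 0.917 (0.844 to 0.996). TRBJ2-4 was at 1.09, 1.11 and 1.20 (1.06 to 1.35 in DN T cells). The ratios of TRBJ2-2, TRBJ2-3 and TRBJ2-5 had intervals that included 1 in each library. In DN T cells the out-of-frame shares of TRBJ2-1 and TRBJ2-7, the genes that were higher there, were thus below their in-frame shares. The 2 measures overlap, since in-frame clonotypes were 38188 of the 41948 clonotypes of DN T cells. TRBJ1-1 (0.854), TRBJ1-4 (0.836) and TRBJ1-6 (0.817) of the other cluster also lay below 1 in DN T cells. By clonotypes TRBJ1-1 and TRBJ1-4 were lower in DN than in CD4 T cells (0.887 and 0.856), and TRBJ1-6 was higher (1.09).

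Some out-of-frame clonotypes were 1 inserted or deleted base away from an in-frame clonotype of the same V and J gene with at least 10 times their reads. These were 165 of 3308 in the CD4, 92 of 3704 in the CD8 and 301 of 3528 in the DN library. Without them the TRBJ2 ratio was 1.10 in the CD4, 1.07 in the CD8 and 0.985 (95% interval 0.961 to 1.01) in the DN library. With only clonotypes of at least 2 reads the ratios fell to 1.06 in the CD4, 0.970 (0.920 to 1.02) in the CD8 and 0.939 (0.899 to 0.980) in the DN library, so the excess out of frame in CD8 T cells was not seen at that minimum.

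The D gene is the second element of the junction that depends on the cluster. Among TRBJ2 clonotypes with a named D gene, TRBD2 made up 55.3% (95% interval 54.7 to 56.0%) in the CD4, 57.3% (56.9 to 57.8%) in the CD8 and 66.4% (65.8 to 66.9%) in the DN library. Among TRBJ1 clonotypes it was named in 8.39%, 8.0% and 9.59%, although by the gene order no direct join of TRBD2 leads to TRBJ1. No D gene was named for 22.3% of TRBJ2 clonotypes in the CD4, 22.0% in the CD8 and 18.8% in the DN library. In clonotypes found in 1 library the TRBD2 share was 54.3%, 56.4% and 66.6%.

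All 6 TRBJ2 genes had a higher TRBD2 share in DN than in CD4 and CD8 T cells. TRBJ2-2 had the lowest in each library, with 43.9% in the CD4, 44.5% in the CD8 and 54.8% in the DN library, and TRBJ2-7 the highest, with 58.8%, 59.9% and 69.4%. TRBJ2-1 was at 56.2%, 56.5% and 65.7%, next to TRBJ2-5 at 53.8%, 57.3% and 65.4%. For each gene the interval of DN T cells was separate from those of both other libraries.

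Out of frame, the 3 libraries lay closer together. TRBD2 then made up 63.9% (95% interval 61.7 to 66.0%) of TRBJ2 clonotypes with a named D gene in the CD4, 69.8% (68.0 to 71.7%) in the CD8 and 68.2% (66.2 to 70.2%) in the DN library. In frame it was 54.6%, 56.6% and 66.2%. The in-frame share was thus below the out-of-frame share by the most in CD8 T cells and by the least in DN T cells, where the in-frame interval of 65.5 to 66.8% overlapped that out of frame.

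**Figure D4:**
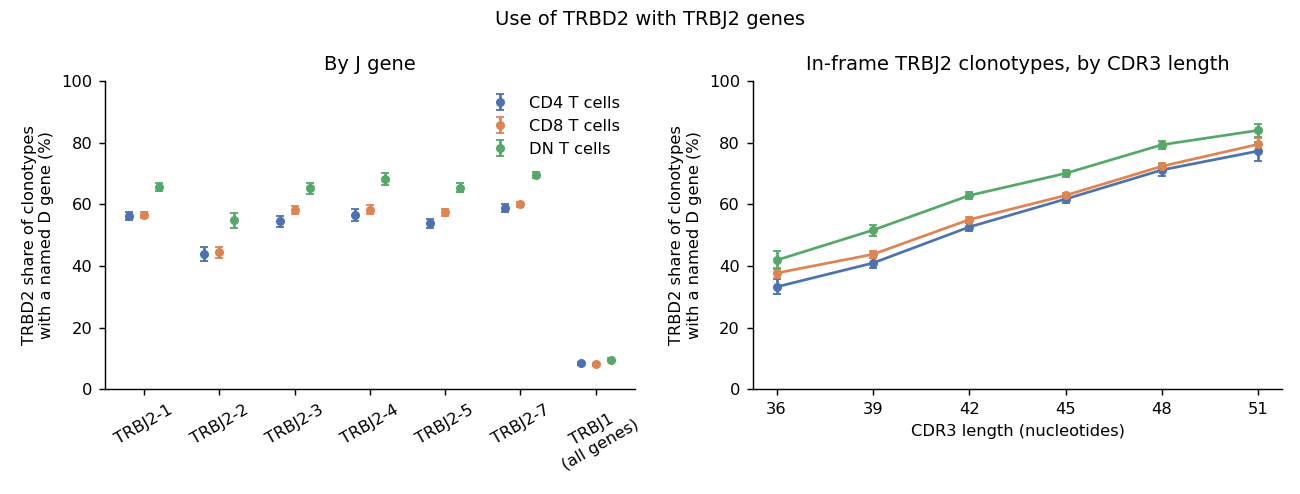
Share of TRBD2 among clonotypes with a named D gene, in percent, for each TRBJ2 gene and for all TRBJ1 genes (left) and for in-frame TRBJ2 clonotypes by CDR3 length in nucleotides (right), in 1 library each of CD4, CD8 and DN T cells, with 95% Wilson intervals. DN T cells lie highest at each TRBJ2 gene and each length, for example 62.9% against 55.02% in CD8 T cells at 42 nucleotides.

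The D gene is hard to assign after trimming, and longer CDR3s name TRBD2 more often, so the share was set at equal length. At 36 nucleotides TRBD2 made up 33.2% in the CD4, 37.7% in the CD8 and 41.9% in the DN library. At 42 nucleotides it was 52.6%, 55.02% and 62.9%, and at 51 nucleotides 77.3%, 79.5% and 84.0%. DN T cells were the highest at each of the 6 lengths from 36 to 51 nucleotides.

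The letters of the CDR3 were read as well, with words that were themselves picked from the D assignments. The word GGGACA was used for TRBD1 and CTGGGG for TRBD2, on the coding strand and between the V and J ends, because they were present in 24.4% and 51.7% of the clonotypes assigned to their D gene and in 0.210% and 2.28% of those assigned to the other. Among in-frame TRBJ2 clonotypes with exactly 1 of these words, CTGGGG made up 71.0% (95% interval 70.2 to 71.9%) in the CD4, 72.05% (71.5 to 72.6%) in the CD8 and 80.8% (80.1 to 81.4%) in the DN library. In TRBJ1 clonotypes it was 2.72%, 2.49% and 2.99%. CTGGGG was thus rare beside GGGACA in TRBJ1 clonotypes. Within TRBJ2 clonotypes its share was highest in DN T cells, but CDR3 length was not held equal here. Since the words came from the D assignments, their shares are not a separate check of these. All 4 clonotypes of DN T cells printed above hold CTGGGG.

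V pairing was not independent of the J gene, since the TRBJ2 share differed between V genes within each library. It was described for the 9 V genes with at least 2% of TCR beta clonotypes in every library. Averaged over the libraries, TRBJ2 was lowest with TRBV19 (63.5%), TRBV1 (65.2%) and TRBV13-1 (66.1%) and highest with TRBV13-2 (71.5%), TRBV4 (73.4%) and TRBV17 (77.7%). The share was lowest in CD4 T cells for 9 of 9 V genes, and it was higher in DN than in CD8 T cells for 7 of 9. With TRBV19 it was 57.7% in the CD4, 66.7% in the CD8 and 66.1% in the DN library, and with TRBV17 75.4%, 79.1% and 78.4%. Those were the 2 V genes without an excess in DN over CD8 T cells.

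The direction over the V genes depended on the J gene. TRBJ2-1 was higher in DN than in CD8 T cells with 9 of 9 V genes and TRBJ2-7 with 8 of 9, while TRBJ2-4 was higher with 0 of 9 and TRBJ2-5 with 1 of 9. TRBJ2-2 was higher in DN T cells with 2 of 9 and TRBJ2-3 with 4 of 9, so that TRBJ2-3 had no common direction. When each library was given the V gene shares of the 3 libraries pooled, the DN over CD4 ratio of TRBJ2 by clonotypes was 1.09 (95% interval 1.08 to 1.10).

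The clonotypes of each V-J pair were then divided by the number that the shares of its V and J gene give when multiplied. Of the pairs with a TRBJ2 gene and at least 50 clonotypes expected, 86.7% of 83 in the CD4, 84.0% of 94 in the CD8 and 83.1% of 77 in the DN library lay within that fold of the product, from 20% below to 25% above. In each library 1 TRBJ2 pair was past 1.5-fold above, where 1.91% of all pairs in the CD4, 2.27% in the CD8 and 0.73% in the DN library were. Below, 2, 0 and 3 TRBJ2 pairs were past 1.5-fold, where 5.1%, 4.55% and 5.11% of all pairs were.

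TRBJ2-5 gave the pairs that stood out. With TRBV3 it had 120 clonotypes in the CD4 T cells, 228 in the CD8 and 70 in the DN library, at 3.48, 2.85 and 2.85 times the product of the shares, although in CD4 and DN T cells under 50 clonotypes were expected. It made up 41.8% (95% interval 36.3 to 47.6%) of the TRBV3 clonotypes in the CD4, 38.1% (34.3 to 42.1%) in the CD8 and 34.1% (28.0 to 40.9%) in the DN library. By clonotypes these were many receptors and not a single clone, with 110, 215 and 61 distinct in-frame amino acid CDR3s. By reads, the largest clonotype of the pair held 159 of 397 reads in the CD4 library. It held 23 of 354 in the CD8 and 195 of 396 in the DN library. With TRBV14 TRBJ2-5 was at 2.08 times in the CD4, 1.40 in the CD8 and 1.74 in the DN library. TRBJ2-4 was rarer with TRBV14, at 0.496, 0.874 and 0.574 times, and TRBJ2-7 with TRBV3, at 0.618, 0.750 and 0.711. Under 50 clonotypes were also expected for TRBV14 with TRBJ2-4 in CD4 T cells and for TRBV3 with TRBJ2-7 in DN T cells. The direction of each of these pairs was the same in the 3 libraries.

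The remaining named pairs were smaller. TRBV17 was above the product with TRBJ2-2 (1.24 in the CD4, 1.26 in the CD8 and 1.22 in the DN library), with TRBJ2-1 (1.27, 1.14 and 1.08) and with TRBJ2-5 (1.23, 1.19 and 1.29). TRBV4 with TRBJ2-5 was at 1.02, 1.24 and 1.33, and TRBV30 with TRBJ2-1 at 1.11, 1.41 and 1.24. TRBV29 was below with TRBJ2-3 (0.630, 0.771 and 0.868), TRBJ2-1 (0.727, 0.859 and 0.810) and TRBJ2-4 (0.951, 0.856 and 0.618). TRBV20 was below with TRBJ2-3 (0.846, 0.688 and 0.908) and TRBJ2-5 (0.755, 0.695 and 0.696), and with TRBJ2-2 it was at 1.03, 0.697 and 0.692. TRBV14 with TRBJ2-3 was at 0.752, 0.854 and 0.645. Under 50 clonotypes were expected for TRBV30 with TRBJ2-1 in CD4 and in DN T cells and for TRBV20 with TRBJ2-2 in DN T cells.

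Over the 9 V genes, with the libraries summed, the profile of log2 observed over expected clonotypes was compared between J genes as a description. TRBJ2-1 and TRBJ2-2 were most like each other (Pearson r = 0.59), as were TRBJ2-5 and TRBJ2-7 (r = 0.45). TRBJ2-3 was nearest to TRBJ2-5 (r = 0.37). TRBJ2-4 was nearest to a gene of the other cluster, TRBJ1-2 (r = 0.64), and least like TRBJ2-1 (r = -0.69). The points share libraries and depth.

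In-frame TRBJ2 CDR3s were longer in DN T cells. The mean length was 41.9 nucleotides in the CD4 (SD 4.61, n = 26205 clonotypes), 41.9 in the CD8 (SD 4.65, n = 53536) and 42.9 in the DN library (SD 4.57, n = 26996). DN exceeded CD8 T cells by 1.00 nucleotide (95% interval 0.936 to 1.07) and CD4 T cells by 1.02 (0.938 to 1.09), while CD8 and CD4 T cells differed by 0.01 (-0.06 to 0.08). TRBJ1 CDR3s were also longer in DN than in CD8 T cells, by 0.60 nucleotides (0.50 to 0.69). TRBJ2 exceeded TRBJ1 CDR3s by 0.43 nucleotides in the CD4, 0.55 in the CD8 and 0.96 in the DN library. CDR3s of at least 48 nucleotides were 13.5% of TRBJ2 clonotypes in the CD4, 14.6% in the CD8 and 20.3% in the DN library.

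**Figure D5:**
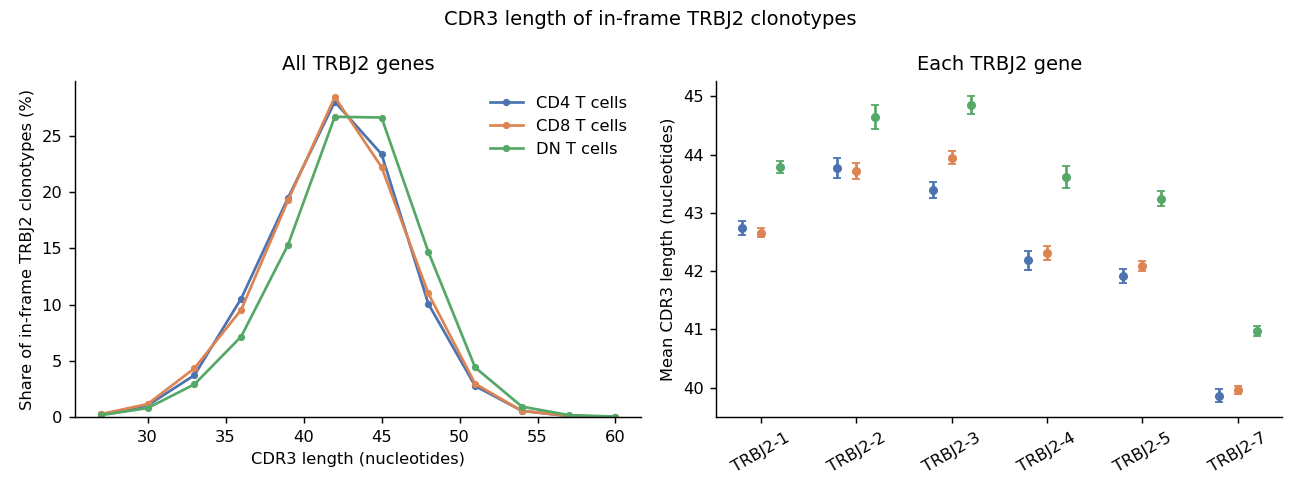
Length of in-frame TRBJ2 CDR3s in nucleotides, as the share of clonotypes at each length (left) and as the mean of each gene with its 95% interval on an axis that does not start at 0 (right), for 1 library each of CD4, CD8 and DN T cells. The DN curve is shifted to longer CDR3s, with 26.6% of clonotypes at 45 nucleotides, and the DN mean is the highest for each gene.

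The 6 genes differed from one another by more than the libraries did. TRBJ2-7, with the shortest printed J end, had the shortest CDR3s. Its means were 39.9 in the CD4, 40.0 in the CD8 and 41.0 nucleotides in the DN library. TRBJ2-2, which kept its J end whole most often, had 43.8, 43.7 and 44.6, and TRBJ2-3 had 43.4, 43.9 and 44.9. Each of the 6 genes was longer in DN than in CD8 T cells, from 0.90 nucleotides for TRBJ2-3 to 1.30 for TRBJ2-4. With each of the 9 V genes the TRBJ2 CDR3s were also longer in DN than in CD8 T cells, by 0.30 to 1.23 nucleotides, and than in CD4 T cells, by 0.18 to 1.65.

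Over all TRBJ2 clonotypes the difference lay outside the J end. The bases of the printed J stretch kept in the CDR3 had a mean of 17.5 for DN and 17.6 for CD8 T cells, a difference of -0.08 (95% interval -0.13 to -0.04). The remaining bases numbered 25.5 in DN and 24.4 in CD8 T cells, a difference of 1.09 (1.02 to 1.15). They come from the V end, the D gene, added bases and any J bases before the printed stretch. The total mixes genes with J ends of unequal length, and single genes differed. TRBJ2-7 kept more J bases in DN T cells, by 0.15 (0.08 to 0.22) of a length difference of 1.02 over CD8 T cells and by 0.28 (0.20 to 0.36) of 1.11 over CD4 T cells. Over CD4 T cells, TRBJ2-1 kept 0.28 (0.17 to 0.39) more of a difference of 1.05 and TRBJ2-5 kept 0.17 (0.05 to 0.29) more of 1.32. For each gene most of the excess in DN T cells lay in the remaining bases. Within 1 D gene the CDR3s of DN T cells were longer as well, with means of 44.4 against 43.7 nucleotides in CD8 T cells for TRBD2 and of 42.3 against 41.6 for TRBD1. Among clonotypes found in 1 library the mean TRBJ2 length was 41.9 in the CD4, 41.9 in the CD8 and 43.0 in the DN library.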

How the data were processed

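TCR libraries were made from mRNA of sorted splenic CD4, CD8 and DN T cells (1 library each) with the Takara SMARTer Mouse TCRα/β kit, and the authors assembled reads into clonotypes with MiXCR, whose version, settings and reference are not given in the sources used here. The deposited tables give for each clonotype its count of reads, not normalized, and the fraction of the table's reads, which equalled count over total when checked. The authors' best V, D and J genes and CDR3 sequences were used as deposited. The kit and the primer or PCR steps could favour some sequences, which these tables cannot show.

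TCR beta rows held 133667 reads in the CD4, 150874 in the CD8 and 194290 in the DN library. The 84, 101 and 78 rows of other chains were left out. A count of 3 reads is 0.00224%, 0.00199% and 0.00154% of these totals. Single-read clonotypes made up 61.9%, 68.2% and 56.0% of TRBJ2 clonotypes and were kept. In these libraries 4, 8 and 9 TRBJ2 clonotypes, with 361, 175 and 356 reads, had CDR3s under 18 nucleotides and were kept.

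Clonotypes were the main unit. In frame means without a stop codon. Shares have Wilson 95% intervals, ratios log-scale (Katz) intervals and length differences normal intervals. No test was run, as each subset had 1 library. J genes were counted past a fold of 25% higher or 20% lower, and V-J pairs past 1.5-fold of the product of shares with at least 50 expected clonotypes. Named were the 6 members and any other TRBJ2 gene, the largest clonotype of each member per library (the leading ones of 4 members are printed), V genes with at least 2% of clonotypes in every library, the 3 V genes with the highest and the 3 with the lowest TRBJ2 share, the 3 TRBJ2 pairs furthest above and below in each library, and the most alike J gene. The members, lists and rules were chosen with earlier results of these data known. J ends are the runs of codons, at most 7, held by at least 20% of a gene's in-frame clonotypes. The words for D genes have 6 bases, searched after skipping 9 bases at the V end and 15 at the J end. Gene order and the pseudogene come from the RefSeq list of GRCm38.p6, in which 13 of 13 TRBJ genes matched. No germline sequence or coordinate was used.

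The alternatives were in-frame clonotypes only, at least 2 reads, merging of sequence errors, merging by amino acids, equal depth, no CDR3s under 18 nucleotides, no 100 largest clonotypes, clonotypes of 1 library and standardised V genes, and leaving out out-of-frame insertion or deletion copies was added after seeing the data. Measures were tested on simulated data, and 20 of 20 quantities were recovered. Software was Python 3.11.15 with pandas 2.3.3, NumPy 2.4.6, matplotlib 3.10.9 and SciPy 1.17.1.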

Additional observations from a re-analysis of the deposited data

Results flagged for a closer look

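The out-of-frame over in-frame ratio of the TRBJ2-7 share was 1.18 in the CD4 and 1.16 in the CD8 T cells and 0.933 in the DN library. It stood out because the gene lay on the high side of 1 in CD4 and CD8 T cells and on the low side in DN T cells. It was not alone among J genes in differing between libraries, as TRBJ1-2 was at 0.862, 1.06 and 1.38 in that order and TRBJ1-5 at 1.12, 1.13 and 1.44. The difference between libraries was not tested, since each subset had 1 library. Among clonotypes found in 1 library the values were 1.23, 1.19 and 0.944, and without insertion or deletion copies 1.17, 1.15 and 0.903. With at least 2 reads they were 1.10 (95% interval 0.956 to 1.27), 1.11 (0.966 to 1.27) and 0.799 (0.703 to 0.907).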

How the results depend on the processing

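No paired analysis was possible because each subset had 1 library, and for the same reason no replicate could be left out. TRBJ2-1 and TRBJ2-7 stayed higher in DN than in CD8 and CD4 T cells, by clonotypes and by reads, under all 10 alternatives, with clonotype ratios over CD8 T cells of 1.11 to 1.15 and of 1.07 to 1.12. Of the TRBJ2 totals, those that moved by more than their counting interval follow, with the values of single genes whose interval excluded 1 and whose direction turned. A further 55 values of single genes moved as well, most of them shares of reads, such as TRBJ2-2 in DN over CD8 T cells (0.839) and TRBJ2-5 in DN over CD4 T cells (0.964) without the 100 largest clonotypes. The cause of these moves was not tested.

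With at least 2 reads, the TRBJ2 ratio by clonotypes was 1.005 for DN over CD8 and 1.11 for CD8 over CD4, that by reads 1.11 for DN over CD4, and the out-of-frame over in-frame ratio 1.06 in the CD4, 0.970 in the CD8 (the direction turned) and 0.939 in the DN library. TRBJ2 minus TRBJ1 length was then 0.34 nucleotides in CD4 T cells, the TRBD2 share 54.3% in CD4 and 56.8% in CD8 T cells, and the TRBJ2 pairs past 1.5-fold 0 in the CD4, 2 in the CD8 and 2 in the DN library. In frame only, the ratio by reads was 1.08 for DN over CD8 and 1.12 for DN over CD4, with TRBD2 at 54.6% in CD4 and 56.6% in CD8 T cells. Merged by amino acids, these ratios were 1.08 and 1.12, and TRBD2 was 54.4% in the CD4, 55.9% in the CD8 and 65.5% in the DN library.

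Without the 100 largest clonotypes, the ratios by reads were 1.03 for DN over CD8, 1.13 for DN over CD4 and 1.09 for CD8 over CD4, and TRBJ2-5 by reads turned to 1.08 for CD8 over CD4. For clonotypes of 1 library, the ratio was 1.10 for CD8 over CD4 by clonotypes and 1.10 by reads, and 1.01 for DN over CD8 by reads. TRBD2 was then 54.3% in CD4 and 56.4% in CD8 T cells, 2 TRBJ2 pairs passed in CD8 T cells, and the direction turned by reads for TRBJ2-5 in CD8 over CD4 (1.07) and for TRBJ2-3 in DN over CD8 (0.951). With standardised V genes, the ratios were 1.09 for DN over CD4 and 1.08 for CD8 over CD4 by clonotypes, and 1.10 and 1.03 by reads. Without insertion or deletion copies the out-of-frame ratio was 0.985 in DN T cells.

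Equal depth, merging of sequence errors and leaving out short CDR3s moved none of the TRBJ2 totals beyond their intervals.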

Other observations

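Of the 1434 TRBJ2 clonotypes present in all 3 libraries, 44 were out of frame. The one of most reads over 18 nucleotides in length joined TRBV5 to TRBJ2-2 and is printed with its J end in capitals, since it was also the largest TRBJ2-2 clonotype of CD8 T cells.
TRBV5 and TRBJ2-2: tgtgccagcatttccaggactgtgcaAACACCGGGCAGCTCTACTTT
It had 47 nucleotides, with 66 reads in the CD4, 52 in the CD8 and 88 in the DN library. Other out-of-frame TRBJ2 clonotypes found in all 3 libraries were uneven. A TRBV31 and TRBJ2-7 join of 47 nucleotides had 181 reads in the CD4, 2 in the CD8 and 3 in the DN library. A TRBV31 and TRBJ2-1 join of 43 nucleotides had 3, 167 and 9 reads, and a TRBV19 and TRBJ2-4 join of 43 nucleotides had 7, 22 and 134. These 4 clonotypes encode no receptor by themselves.

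A CDR3 of 16 nucleotides assigned to TRBV4 and TRBJ2-1 had 357 reads in the CD4, 164 in the CD8 and 323 in the DN library. Its letters were all those of the TRBJ2-1 end, and it made up 361, 175 and 356 reads together with the other TRBJ2 CDR3s under 18 nucleotides.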
